A study of Mus musculus with 4 samples.

Results

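Transcripts of the matrix metalloproteinases (MMPs) and of their inhibitors, the tissue inhibitors of metalloproteinases (TIMPs), were measured by RNA sequencing in gWAT, the white fat around the gonads. The genes were taken by name: the 6 proteases Mmp2, Mmp3, Mmp9, Mmp14, Mmp19 and Mmp23 and the 4 inhibitors Timp1, Timp2, Timp3 and Timp4, which make 10 of the 45706 genes in the table. All 10 had a mean of at least 1 TPM (transcripts of a gene per 1000000 transcripts) and were tested. The HFD+Cana group was 2 mice on a high-fat diet (HFD) whose food contained 0.03% canagliflozin by weight for 7 days, and the HFD group was 2 mice on the same diet without the drug. Canagliflozin inhibits SGLT2, the glucose transporter of the kidney tubule. All 4 mice were C57B6/N by the labels, with no engineered allele named, and had eaten the diet for 2 months. The methods describe the animals as male C57BL/6, the labels give no age, and there was no group on normal chow. By the methods, all samples are different biological replicates.

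MMPs are zinc-dependent proteases that cut collagens and other components of the extracellular matrix. Most are secreted as inactive precursors and become active when their prodomain is removed, and TIMPs block the active enzymes by binding at the catalytic site. In fat, where adipocytes enlarge within a dense matrix, these enzymes are known for matrix remodelling. The membrane-bound Mmp14 activates the precursor of Mmp2 with Timp2 as a bridge, so that Timp2 both assists and inhibits that step. An RNA level says nothing of how much of the protease is active.

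Upstream sequence is shown for Mmp3 and Timp1, the protease and the inhibitor with the widest spread over the 4 mice. The sequences are the 250 bases before the annotated start of each gene, 5′ to 3′ on the strand of the gene, from RefSeq on GRCm38.p6. Entries were found for 7 of the 10 genes, and Mmp2, Mmp9 and Mmp19 had none. Capitals mark matches on either strand to the AP-1 motif TGANTCA, the TATA box TATAAA, the Ets motif AGGAAG and the GC box GGGCGG.
Mmp3, chr9:7445572-7445821, plus strand: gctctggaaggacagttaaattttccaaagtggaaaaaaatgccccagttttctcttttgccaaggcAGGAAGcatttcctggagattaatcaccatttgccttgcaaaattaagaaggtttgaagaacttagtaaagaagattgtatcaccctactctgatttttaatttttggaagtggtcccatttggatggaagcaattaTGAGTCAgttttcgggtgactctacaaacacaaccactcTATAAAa
Timp1, chrX:20869916-20870165, plus strand: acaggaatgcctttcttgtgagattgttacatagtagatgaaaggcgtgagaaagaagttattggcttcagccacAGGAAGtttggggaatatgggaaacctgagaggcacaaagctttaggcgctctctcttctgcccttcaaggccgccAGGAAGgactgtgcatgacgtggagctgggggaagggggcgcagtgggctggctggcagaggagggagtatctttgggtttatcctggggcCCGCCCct
The Mmp3 window held an AP-1 match 46 bases before the start, a TATA box match 7 bases before it and an Ets match 183 bases before it. AP-1 matches were found in 6.75% and TATA box matches in 12.4% of all 32851 upstream windows of this length. Among the 8 windows of the 7 genes, Mmp3 was the only gene with a match to either. The Timp1 window held Ets matches 175 and 99 bases before the start and a GC box match 8 bases before it. Ets matches occurred in 29.5% and GC box matches in 32.7% of all windows. These matches describe letters only and not binding.

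The 3 inhibitors Timp4, Timp2 and Timp3 were the most abundant of the 10 transcripts in both groups. TPM is scaled by transcript length, so that levels of different genes can be compared. In HFD+Cana, Timp4 averaged 350.2 ± 92.3 TPM, Timp2 319.7 ± 25.8 TPM and Timp3 295 ± 24.6 TPM, and their ranges overlapped (mean ± SD, n = 2 mice per group, as throughout). In HFD they averaged 325 ± 71.3, 267 ± 8.24 and 257 ± 25.6 TPM. The ranges of Timp2 and Timp3 overlapped there too, and both HFD values of Timp4 were above those of Timp2. The proteases Mmp2, Mmp14, Mmp19 and Mmp23 followed, with means from 40.1 to 63.5 TPM in HFD+Cana and from 29.1 to 62.0 TPM in HFD. Within this group Mmp2 and Mmp14 overlapped in both conditions. Mmp3 and Mmp9 were the least abundant, with means of 4.76 and 2.21 TPM in HFD+Cana and of 8.08 and 1.67 TPM in HFD. Neither Mmp3 nor Mmp9 overlapped with its neighbors in this order in either group. Timp1 had the least fixed place, with 100.4 and 16.7 TPM in HFD+Cana and 35.2 and 18.9 TPM in HFD.

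**Figure D1:**
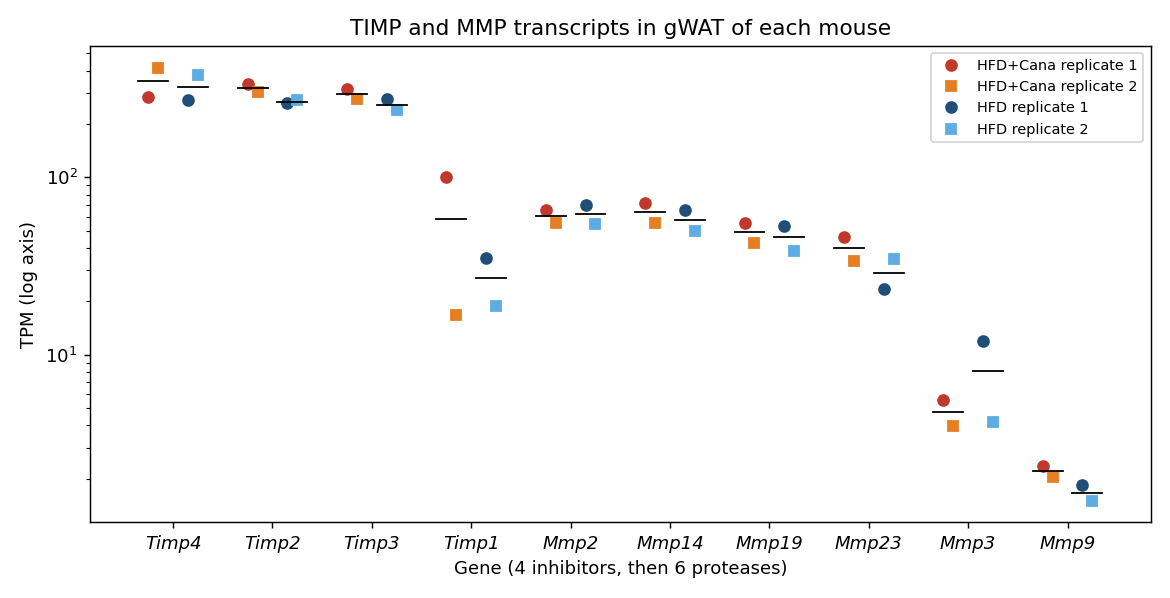
TPM of each gene in each mouse on a log axis, with HFD+Cana left of HFD for every gene and a short line at each group mean. The 4 Timp1 values run from 16.7 to 100.4 TPM, whereas those of Timp2 and Timp3 stay between 239 and 338 TPM.

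To ask whether canagliflozin changed these transcripts, a limma model of log2(TPM + 1), a linear model that shares the variance over genes, contrasted HFD+Cana with HFD, and p-values were adjusted over all genes. None of the 10 genes passed an adjusted p of 0.05, and 0 had an unadjusted p under 0.05 in either direction. Over all 13788 genes tested, 6 passed (0.0435%), all of them higher in HFD+Cana, and 10.8% had an unadjusted p under 0.05 (5.32% with the higher values in HFD+Cana). The adjusted p-values of the 10 genes ran from 0.463 for Timp2 to 0.957 for Mmp2. In 3 of the 10 genes, Timp2, Timp3 and Mmp9, each treated mouse exceeded each control, beside 24.3% of all genes tested. The reverse held in 0 of the 10, beside 19.8%, and the groups overlapped in 7, so that they were apart in 3 of 10 beside 44.1% in either direction. With 1 mouse left out, groups were apart in 6 genes without HFD+Cana replicate 1 (74.4% of all genes), in 7 without HFD+Cana replicate 2 (73.6%), in 6 without HFD replicate 1 (68.2%) and in 7 without HFD replicate 2 (71.9%). The fold change was above 0 in 8 of the 10 genes, beside 53.8% of all genes, and the median log2 fold change was 0.17 over the 10 genes and 0.019 over all genes. With 2 mice against 2, an exact permutation test cannot give a two-sided p below 0.333, so the comparison rests on the model. Fold changes are on the log2(TPM + 1) scale, which understates changes of low transcripts such as Mmp9.

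**Figure D2:**
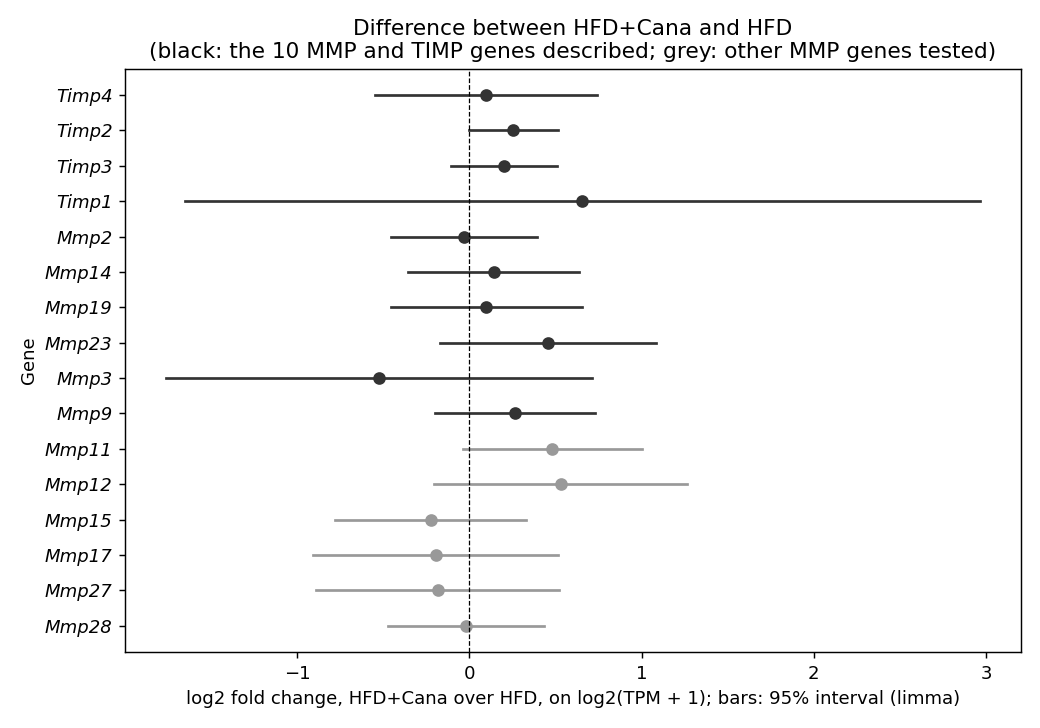
Log2 fold change of HFD+Cana over HFD with its 95% interval from limma, for the 10 genes in black and 6 other tested MMP genes in grey. All intervals include 0, and the interval of Timp1 runs from -1.65 to 2.96.

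Among the inhibitors, Timp2 came closest to passing. Timp2 had 338 and 301 TPM in HFD+Cana, against 261 and 273 TPM in HFD. The treated mice were the higher pair, with a gap of the same order as the spread within them. Its fold change on the log2 scale was 0.26 (SE 0.098, 95% interval -0.0014 to 0.51, adjusted p = 0.463 from limma). Timp3 binds to the matrix and also inhibits ADAM17, the protease that sheds TNF. It had 313 and 278 TPM in HFD+Cana, against 275 and 239 TPM in HFD. The lower treated mouse was 2.55 TPM above the higher control, so that the groups barely separated. On the log2 scale this was a fold change of 0.20 (SE 0.12, 95% interval -0.11 to 0.51, adjusted p = 0.586 from limma). Markers of fibroblasts and progenitors, cells that make much of the matrix of fat, were also higher in both treated mice. Their summed level was 3398 and 3499 TPM in HFD+Cana and 2640 and 2920 TPM in HFD. All 14 markers were detected, and 9 had both treated mice above the controls, beside 24.3% of all genes tested. Mesothelial markers summed to 274 and 427 TPM in HFD+Cana and to 149 and 122 TPM in HFD. Both treated mice were above the controls in 12 of 13, beside the same 24.3%, and none was at 0. The part of either cell type in the Timp2 and Timp3 levels was not tested. In whole tissue, a change in the number of cells of a type and a change in RNA per cell cannot be told apart.

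Timp4, an inhibitor known for its high expression in fat and heart, differed more within the groups than between them. It had 285 and 415 TPM in HFD+Cana, against 275 and 375 TPM in HFD. Replicate 2 was the higher mouse of each group. The model put its log2 fold change at 0.10 (SE 0.24, 95% interval -0.55 to 0.74, adjusted p = 0.908 from limma). The summed level of 12 adipocyte markers, with none at 0, had the same order over the mice as Timp4, with 59666 and 70884 TPM in HFD+Cana and 55718 and 62148 TPM in HFD. The markers did not move as one, and their median log2 fold change was -0.087. In HFD+Cana, 2 were separated with higher values (24.3% of all genes tested) and 4 with lower values (19.8%). Cfd, the adipocyte marker of smallest p in limma, had 4838 and 7433 TPM in HFD+Cana and 1620 and 2445 TPM in HFD. The next by p went the other way. Acsl1 had 426 and 484 TPM in HFD+Cana and 631 and 677 TPM in HFD. Plin1, which coats the lipid droplet, had 546 and 563 TPM in HFD+Cana and 691 and 713 TPM in HFD. None of the adipocyte markers passed an adjusted p of 0.05 in limma. The part of adipocytes in the Timp4 level was not tested.

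Timp1, a secreted inhibitor that inflammatory cytokines induce and that binds the precursor of Mmp9, had the widest spread of the 10 genes. It had 100.4 and 16.7 TPM in HFD+Cana, against 35.2 and 18.9 TPM in HFD. The treated mice were the highest and the lowest of the 4, 5.997-fold apart, and the HFD mice were 1.86-fold apart between them. The log2 fold change was 0.66 (SE 0.88, 95% interval -1.65 to 2.96, adjusted p = 0.818 from limma). Leaving out HFD+Cana replicate 1 turned it to -0.60, and leaving out HFD+Cana replicate 2 gave 1.91. The values were 1.09 when HFD replicate 1 was dropped and 0.23 when HFD replicate 2 was dropped, so no direction can be given. Macrophage markers also had their highest sum in HFD+Cana replicate 1 and their lowest in replicate 2, with 5735 and 3261 TPM, against 4731 and 3278 TPM in HFD. All 14 of them were detected. Red blood cell transcripts were highest in the same mouse, at 14391 and 6673 TPM in HFD+Cana and 1756 and 5940 TPM in HFD over 5 genes, none at 0. The part of these cells in the Timp1 level was not tested.

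The gelatinases Mmp2 and Mmp9 digest denatured collagen and basement membrane collagen. Mmp2 had 65.8 and 55.0 TPM in HFD+Cana, against 69.6 and 54.3 TPM in HFD. The treated mice lay between the HFD mice. On the log2 scale this was a fold change of -0.032 (SE 0.16, 95% interval -0.45 to 0.39, adjusted p = 0.957 from limma). Mmp9 had 2.38 and 2.04 TPM in HFD+Cana, against 1.84 and 1.51 TPM in HFD. The treated mice were the higher pair, at a level where the file gives no measure of counting error. Its log2 fold change was 0.26 (SE 0.18, 95% interval -0.20 to 0.73, adjusted p = 0.633 from limma). Neutrophils store the Mmp9 protein in granules. Their markers summed to 61.8 and 43.7 TPM in HFD+Cana and to 166 and 85.3 TPM in HFD, and 2 of the 10, Ngp and Ly6g, were listed at 0 in all 4 mice. Of the 5 that were tested, S100a8 alone was separated, beside 44.1% of all genes tested. S100a8 had 13.7 and 22.5 TPM in HFD+Cana and 117 and 53.7 TPM in HFD. Without S100a8 the sums overlapped, at 48.1 and 21.2 TPM in HFD+Cana and 49.2 and 31.5 TPM in HFD. The part of these cells in the Mmp9 level was not tested.

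Mmp14, the membrane-bound collagenase that fat needs for its development in mice, had 71.5 and 55.5 TPM in HFD+Cana, against 65.3 and 49.8 TPM in HFD. The groups overlapped, and the log2 fold change came to 0.14 (SE 0.19, 95% interval -0.35 to 0.64, adjusted p = 0.818 from limma). Mmp19, which cleaves basement membrane components, had 55.3 and 42.6 TPM in HFD+Cana, against 53.5 and 38.3 TPM in HFD. Its groups overlapped too, and the log2 fold change came to 0.099 (SE 0.21, adjusted p = 0.893 from limma). For Mmp2, Mmp14 and Mmp19, the spread between mice of a group exceeded the difference between group means. Mmp23, a membrane-anchored protease without the hemopexin domain of most MMPs, had 46.2 and 33.9 TPM in HFD+Cana, against 23.6 and 34.5 TPM in HFD. The lower treated mouse was just under the higher HFD mouse. The log2 fold change, 0.46 (SE 0.24, 95% interval -0.17 to 1.08, adjusted p = 0.552 from limma), ranged from 0.19 to 0.72 with each mouse left out in turn, with the lowest value without HFD replicate 1.

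Mmp3 (stromelysin-1), which digests many matrix proteins and activates other MMP precursors, had a lower mean in HFD+Cana, which rested on a single HFD mouse. It had 5.56 and 3.96 TPM in HFD+Cana, against 12.002 and 4.16 TPM in HFD. HFD replicate 1 stood apart, and the other 3 mice lay within 1.5996 TPM of each other. The model put its log2 fold change at -0.52 (SE 0.47, 95% interval -1.76 to 0.71, adjusted p = 0.727 from limma). With HFD replicate 1 left out the value turned to 0.14 (limma adjusted p = 0.954). Leaving out HFD replicate 2 gave -1.19 (limma adjusted p = 0.464), without HFD+Cana replicate 1 -0.73 and without HFD+Cana replicate 2 -0.32.

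**Figure D3:**
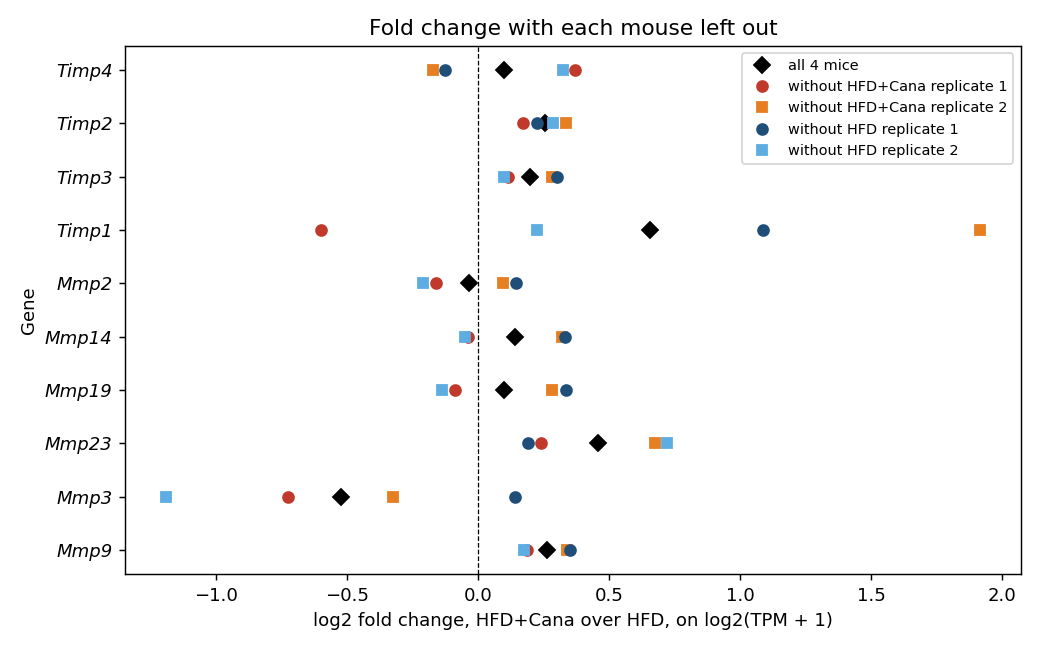
Log2 fold change of each gene with all 4 mice (diamonds) and with each mouse left out in turn (colored points). The direction held in Timp2, Timp3, Mmp23 and Mmp9 and crossed 0 in the other 6 genes. In Timp2, Timp3 and Mmp9 both treated mice exceeded both controls, so leaving out 1 mouse could not turn the direction.

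Mice of the same group also differed from each other. HFD+Cana replicate 1 was the highest of the 4 mice in 7 of the 10 genes, beside 31.4% of all genes tested. Replicate 1 was above replicate 2 within both groups in 7 of the 10 genes, beside 36.4% of all genes, and Timp4 alone had the reverse order in both groups. Neither the labels nor the methods say whether a replicate number ties an HFD+Cana mouse to an HFD mouse. The highest mouse exceeded 2 times the lowest in 2 of the 10 genes, Timp1 and Mmp3, beside 11.5% of all genes. For Timp2 the highest was 1.29 times the lowest, for Mmp2 1.28 times and for Timp3 1.31 times.

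**Figure D4:**
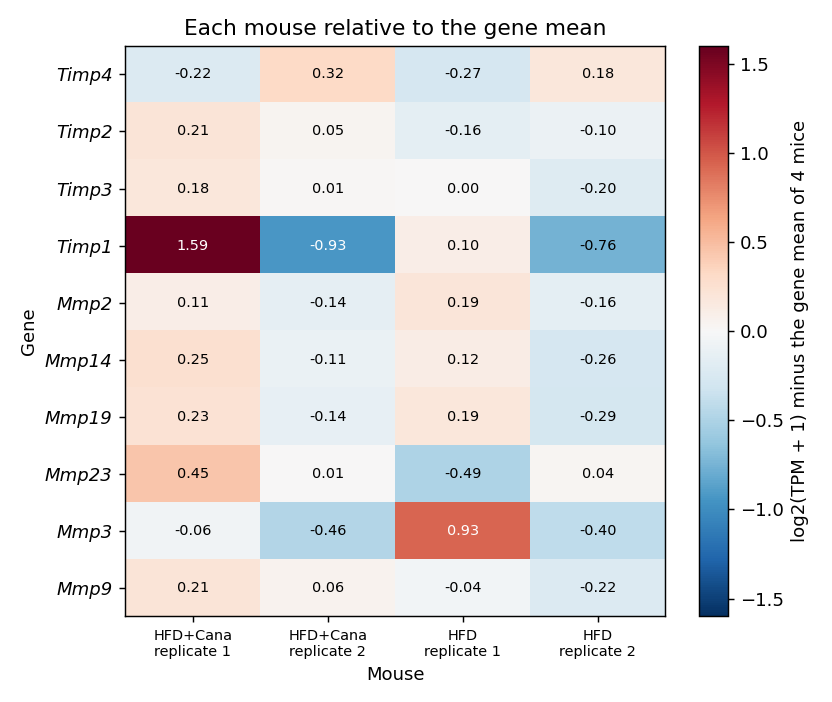
Log2(TPM + 1) of each gene in each mouse minus the mean of the 4 mice. Timp1 reaches 1.59 in HFD+Cana replicate 1 and -0.93 in replicate 2, Mmp3 reaches 0.93 in HFD replicate 1, and Timp2 stays between -0.16 and 0.21.

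To describe the balance of proteases and inhibitors, TPM ratios were formed per mouse, with no test. The summed TPM of the 6 proteases was 247 and 193 in HFD+Cana, against 226 and 183 in HFD. The sum of the 4 inhibitors was 1036 and 1011 TPM in HFD+Cana, against 846 and 906 TPM in HFD. The inhibitor sum was thus higher in both treated mice, whereas the protease sum overlapped. The ratio of proteases to inhibitors was 0.238 and 0.191 in HFD+Cana and 0.267 and 0.201 in HFD, with overlapping groups. Its group difference of -0.020 was smaller than the SD within HFD+Cana (0.034) or HFD (0.046). Mmp2 over Timp2 was 0.195 and 0.182 in HFD+Cana, against 0.266 and 0.199 in HFD. Both treated values were below both controls, by 0.195 against 0.199 at the nearest. Timp2 itself was higher in both treated mice, whereas for Mmp2 the treated mice lay between the HFD mice. Mmp14 over Timp2 was 0.212 and 0.184 in HFD+Cana, against 0.250 and 0.182 in HFD, and overlapped. Mmp9 over Timp1 was 0.0237 and 0.122 in HFD+Cana, against 0.0522 and 0.0797 in HFD, so that the treated mice enclosed the HFD mice, as they did for Timp1 itself. Timp1 made up 9.69% and 1.65% of the inhibitor sum in HFD+Cana and 4.16% and 2.09% in HFD.

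**Figure D5:**
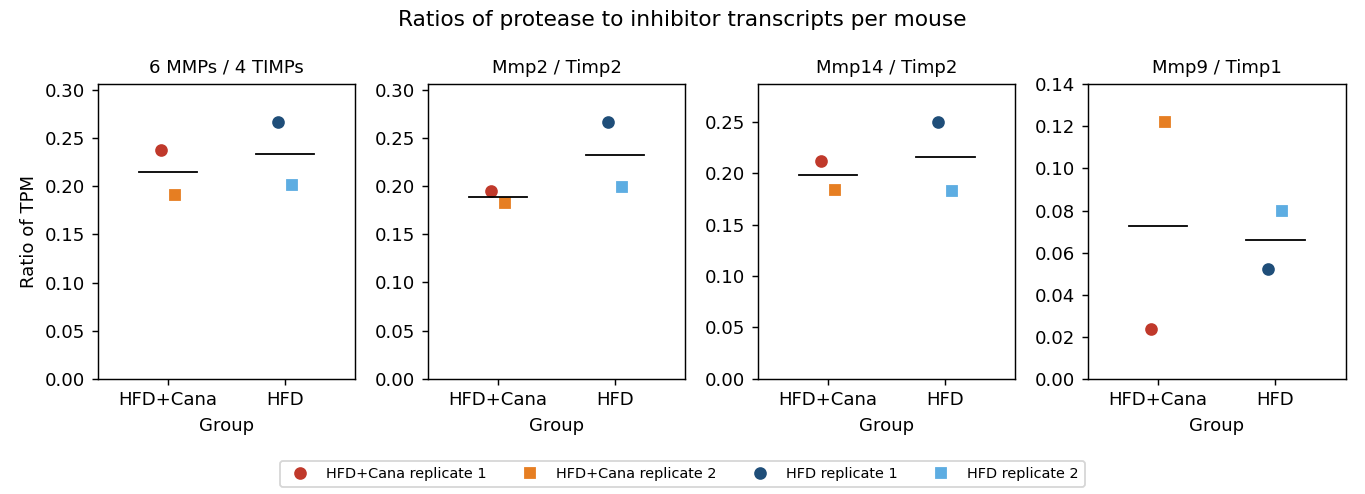
Ratio of protease to inhibitor TPM in each mouse, with HFD+Cana left of HFD and a line at each group mean, on axes that start at 0. The treated mice lie below the HFD mice only for Mmp2 over Timp2, at 0.195 and 0.182 against 0.266 and 0.199.

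Of the 17 other mouse MMP genes, 6 had a mean of at least 1 TPM, 7 were detected below it and 4 (Mmp1a, Mmp1b, Mmp20 and Mmp21) were listed at 0 in every mouse. None of the 6 passed, and 0 had an unadjusted p under 0.05. Mmp12, the elastase of macrophages, was the most abundant MMP transcript of the tissue. It had 249 and 146 TPM in HFD+Cana, against 146 and 119 TPM in HFD. The treated mice were higher, with the lower treated mouse 0.331 TPM above the higher HFD mouse. The log2 fold change was 0.53 (SE 0.28, adjusted p = 0.555 from limma). With Mmp12 added to the proteases, a ratio chosen after its values were seen, the ratio to inhibitors was 0.478 and 0.335 in HFD+Cana and 0.439 and 0.333 in HFD. Mmp11 (stromelysin-3), which is activated inside the cell by furin, had 22.8 and 33.5 TPM in HFD+Cana, against 20.4 and 18.6 TPM in HFD. Both treated mice were higher, and the log2 fold change came to 0.48 (SE 0.20, adjusted p = 0.480 from limma). In the remaining genes, Mmp15, Mmp17, Mmp27 and Mmp28, the groups overlapped and the log2 fold changes ran from -0.22 for Mmp15 to -0.018 for Mmp28.

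Mmp3 and Mmp12 belong to a cluster of 10 MMP genes on chromosome 9 (GRCm38, 7272514 to 7699585) that spans 427072 bases and holds no other protein-coding gene in the GENCODE M21 annotation. Only 3 of the 10, Mmp12, Mmp3 and Mmp27, reached a mean of 1 TPM. Mmp12 ends 76322 bases before Mmp3 begins. Mmp12 was highest in HFD+Cana replicate 1 and Mmp3 in HFD replicate 1. The other proteases lie apart, with Mmp2 on chromosome 8 (92827291 to 92853420), Mmp9 on chromosome 2 (164940780 to 164955850), Mmp14 on chromosome 14 (54431612 to 54445364), Mmp19 on chromosome 10 (128790910 to 128800824) and Mmp23 on chromosome 4 (155650655 to 155653384).

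Timp1, Timp3 and Timp4 each lie inside a synapsin gene on the opposite strand. Timp1 (chromosome X, 20870166 to 20874735) is within Syn1 and touches none of its annotated exons. Timp3 (chromosome 10, 86300372 to 86349506) is within Syn3 and touches 1 exon, and Timp4 (chromosome 6, 115241892 to 115252205) is within Syn2 and touches 2. Timp2 (chromosome 11, 118301069 to 118355740) has Cep295nl within its span on the same strand with no shared exon. Mmp19 overlaps Tmem198b and lies within the antisense gene Gm47093, both on the opposite strand. Exons of Mmp19 are touched by 2 exons of Tmem198b and 1 of Gm47093. Tmem198b had 19.41 and 16.99 TPM in HFD+Cana and 14.99 and 13.64 TPM in HFD, and no TPM was at hand for Gm47093. The part of these 2 genes in the Mmp19 level was not tested. The library kit keeps the strand, and the synapsin host genes were low. Syn2 had 5.85 and 7.35 TPM in HFD+Cana and 7.51 and 7.78 TPM in HFD. Syn1 had 1.75 and 0.615 TPM in HFD+Cana and 1.68 and 0.716 TPM in HFD, with replicate 1 above replicate 2 in both groups as in Timp1. Syn3 stayed below 1 TPM in all mice.

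Other genes around the family were read from the same fit, and 0 genes in any of these lists passed an adjusted p of 0.05. The genes named are those of smallest p in each list. Of 9 tested inhibitors and receptors of MMPs, 2 had higher and 1 lower values at an unadjusted p under 0.05, and the median log2 fold change was 0.13. Thbs1 and Thbs2, thrombospondins of the matrix, were those with higher values. Thbs1 had 238 and 239 TPM in HFD+Cana, against 132 and 101 TPM in HFD (log2 fold change 1.04, SE 0.14, adjusted p = 0.193 from limma). Thbs2, which binds Mmp2 for uptake by Lrp1, had 65.9 and 94.2 TPM in HFD+Cana, against 45.3 and 36.7 TPM in HFD (0.93, SE 0.21, adjusted p = 0.280). The groups did not overlap in either gene, both named for their small p. Of the 9 tested, 3 were separated with higher and 2 with lower values, beside 24.3% and 19.8% of all genes tested. Tfpi2, a serine protease inhibitor, had 13.2 and 12.3 TPM in HFD+Cana and 16.98 and 15.4 TPM in HFD. The list for the activation of MMP precursors holds proteases and the receptor Plaur, and 12 of its genes were tested. Of these, 2 had higher and 1 lower values at an unadjusted p under 0.05 in limma, with a median of 0.11. Those with higher values, Cma1 and Mcpt4, are chymases of mast cells. Cma1 had 14.96 and 12.1 TPM in HFD+Cana, against 6.33 and 7.27 TPM in HFD, and Mcpt4 had 16.2 and 14.7 TPM, against 9.32 and 9.95 TPM in HFD. St14 (matriptase) had 2.43 and 1.98 TPM in HFD+Cana, against 4.88 and 4.12 TPM in HFD. The 3 genes had adjusted p-values of 0.234 to 0.268.

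Of 16 tested ADAM and ADAMTS proteases, relatives that TIMPs can also inhibit, 0 had higher and 2 lower values at an unadjusted p under 0.05, with a median of -0.041. These were Adamts2, which trims procollagen and had 43.6 and 38.0 TPM in HFD+Cana against 54.0 and 55.9 TPM in HFD, and Adamts9, with 16.0 and 17.6 TPM in HFD+Cana against 21.2 and 20.4 TPM in HFD. Adam15 had 308 and 313 TPM in HFD+Cana, against 283 and 268 TPM in HFD. Among 22 matrix substrates, 2 had higher and 5 lower values at an unadjusted p under 0.05, and the median was 0.027. The smallest p-values were those of basement membrane and microfibril components. Hspg2 (perlecan) had 224 and 245 TPM in HFD+Cana, against 309 and 309 TPM in HFD. Col4a2 had 333 and 424 TPM in HFD+Cana, against 721 and 545 TPM in HFD, and Col6a2 had 391 and 363 TPM in HFD+Cana, against 707 and 518 TPM in HFD. The groups did not overlap in any of the 3, which were named for their small p. Their adjusted p-values from limma were 0.280 to 0.333. Over the 22 substrates, 5 were separated with higher and 6 with lower values, beside 24.3% and 19.8% of all genes tested. Shares at an unadjusted p under 0.05 in these lists stand beside the 10.8% of all genes.

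By the likeness of their values over the 4 mice, the genes nearest to Mmp2, which had the highest mean of the 6 proteases over all 4 mice (Mmp14 was higher in HFD+Cana), were Hsp90ab1, Gng2 and Ppp1r21. Their root mean square distances in log2(TPM + 1), centred on each gene's mean, were 0.011, 0.012 and 0.015. Of the other 9 genes, Mmp19 (0.088) and Mmp14 (0.095) were nearest to Mmp2 and Timp1 (0.89) was farthest. For Timp4, the most abundant inhibitor, the nearest genes were Sucnr1, Plekhb1 and Acacb, at 0.018, 0.028 and 0.031. Sucnr1 had 100.4 and 145 TPM in HFD+Cana and 96.5 and 128 TPM in HFD. These are the nearest of 13788 genes over 4 mice, given as a description with no test.

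Facts of the libraries bear on all of these values. Genes listed above 0 TPM numbered from 21068 to 21101 in HFD+Cana and from 19884 to 21129 in HFD, and transcripts of mitochondrial DNA took 8.10% to 8.39% and 7.04% to 8.50% of the total. TPM keeps no read depth. Adipoq (adiponectin), the defining transcript of adipocytes, was present with 3926 and 4551 TPM in HFD+Cana and 3645 and 4124 TPM in HFD. Of 12 hepatocyte markers, 11 had both treated mice above the controls, beside 24.3% of all genes tested. In limma, 3 passed (Fabp1, Apoa1 and Ttr). None of the 12 was at 0 over all mice, but the HFD values of those that passed were near 0. Ttr had 7.55 and 9.06 TPM in HFD+Cana and 0 in both HFD mice. Fabp1 had 15.8 and 22.0 TPM in HFD+Cana, against 0 and 0.078 TPM in HFD. Apoa1 had 18.3 and 19.4 TPM in HFD+Cana, against 0.62 and 1.17 TPM in HFD. The median log2 fold change was -0.22 in 10 endothelial, -0.29 in 9 smooth muscle and -1.25 in 9 skeletal muscle markers.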

How the data were processed

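RNA of gWAT from 2 HFD+Cana and 2 HFD mice was sequenced after a stranded mRNA library preparation. The authors ran nf-core/rnaseq with default settings and deposited Salmon's TPM for each gene, which sum to 1000000 in every sample. Builds GRCm38 and mm10 and R 4.3.2 appear in the submitters' processing notes. The sources used here do not state the annotation release. Since TPM keeps no depth, no counting interval was computed, and no count test was run.

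Genes averaging 1 TPM or more (13788) were fitted as log2(TPM + 1) on the group alone in limma 3.58.1 (R 4.3.3, trended eBayes), with Benjamini-Hochberg adjustment over all of them. The model was also run on simulated data with independent noise set by expression level. Such data lack the large differences between single mice seen here, so the run cannot show how reliable these calls are. Gene names turned into dates (27) were restored by ID, and 45143 of 45706 IDs were found in GENCODE M21, which gave positions. The paper names no test for these data. Alternatives were pseudocounts of 0.1 and 5, no filter, a mean of at least 5 TPM, median-of-ratios scaling, quantile normalization, eBayes without trend, the replicate number as a block and leaving out each mouse. The 10 genes and all gene lists were chosen with earlier results of these data known. Named besides the 10 genes were MMP genes of at least 1 TPM, the 3 genes of smallest p in lists and the 3 nearest genes to Mmp2 and Timp4. Of the neutrophil list only S100a8 of these was named. The fibroblast, mesothelial, macrophage, red blood cell, endothelial and muscle lists were described without naming genes. Mmp1a, Mmp1b, Mmp20, Mmp21, Cep295nl, Tmem198b, Gm47093, Syn3, Ngp, Ly6g and Adipoq and the ratio with Mmp12 fall outside these rules and were chosen after their values were seen. Tables and plots used Python 3.11.15, pandas 2.3.3 and matplotlib 3.10.9.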

Additional observations from a re-analysis of the deposited data

How the results depend on the processing

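None of the genes passed in limma under any of the 12 alternatives, in which adjusted p-values stayed at or above 0.294. All 10 were tested, except that a mean of at least 5 TPM left 9 and removed Mmp9. At an unadjusted p under 0.05 there were 2 of the 10 with the replicate block (Timp2 and Timp3, beside 15.7% of all genes), 1 without a filter (9.12%) and 1 with quantile normalization (10.4%), both Timp2. There were 2 on dropping HFD+Cana replicate 2 (Timp1 and Timp2, beside 9.34%) and 2 on dropping HFD replicate 2 (Mmp3 and Mmp23, beside 9.05%). Over all genes, the 6 higher calls became 0 with a pseudocount of 0.1, without a filter, with a mean of at least 5 TPM and with quantile normalization, 2 with a pseudocount of 5, 13 without trend and 0 with any mouse left out. The replicate block gave 2. Whether same-numbered mice are linked is not stated. Their deviations from the group mean correlated at r = 0.178 across genes. Genes of the 10 with separated groups numbered 6 to 7 with a mouse left out, beside 68.2% to 74.4% of all genes for 2 mice against 1. Leaving out a mouse turned the direction in 6 of the 10 genes, with log2 fold changes from -0.21 to 0.14 for Mmp2, -1.19 to 0.14 for Mmp3, -0.051 to 0.33 for Mmp14, -0.14 to 0.34 for Mmp19, -0.60 to 1.91 for Timp1 and -0.17 to 0.37 for Timp4. The other settings turned no direction, and scaling moved the median over all genes by less than 0.1. The ratio of proteases to inhibitors differed between groups by -0.052 to 0.013 with a mouse left out. Having 2 mice per group and an unknown depth limits every value.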
